A study of Mus musculus with 9 samples.

Results

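The comparison described here is between blood stem and progenitor cells of mice carrying the histone mutant H3.3 K9M and those of mice carrying only rtTA, the doxycycline-dependent transcriptional activator. It covers 6 libraries of the 9 in the series, 3 mice against 3, and the 12563 genes of 37882 listed that reached 1 RPKM (reads scaled to transcript length and library size) in at least 3 of these 6 libraries. Of the 25319 genes outside this filter, 13105 were at 0 in all 6 libraries. The cells were LSK bone marrow cells: negative for the lineage antigens Mac1, Gr1, B220, CD3e and Ter119, and positive for Sca1 and cKit. Control mice had rtTA in Rosa26. K9M mice had the same rtTA plus an H3.3 transgene in Col1a1 with lysine 9 replaced by methionine. A further 3 mice with rtTA in Rosa26 and the lysine 36 mutant K36M in Col1a1 are used only for comparison and for the estimate of spread. All mice were of B6/129 background, 6 to 8 weeks old, and drank water with 2 mg/ml doxycycline and 10 mg/ml sucrose. No group had an unmutated H3.3 transgene, so effects of lysine 9 replacement and of an H3.3 transgene as such cannot be told apart.

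Methylation of histone H3 at lysine 9 marks silent chromatin. It is written by SETDB1, SUV39H1, SUV39H2, G9a (Ehmt2) and GLP (Ehmt1), read by the HP1 proteins, and needed to keep many repeats, germline genes and tissue-specific genes silent. H3.3 is the H3 variant placed in chromatin outside DNA replication by the HIRA and DAXX-ATRX chaperones. Histones in which this lysine is replaced by methionine are known to inhibit the enzymes that methylate it. LSK cells include the blood stem cells and the first multipotent progenitors.

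The 3 mouse loci below show why reads of H3.3 are hard to place. H3f3a (chromosome 1, 180800832 to 180813943) and H3f3b (chromosome 11, 116021912 to 116027962) encode the same protein, and H3f3c (chromosome 2, 119665626 to 119666036, minus strand) is annotated as a processed pseudogene, an intronless copy of the H3f3a transcript. The first 117 bases of each reading frame are shown on the coding strand. Capitals mark the codons of lysine 9 and lysine 36, counted without the initiator methionine.
H3f3a: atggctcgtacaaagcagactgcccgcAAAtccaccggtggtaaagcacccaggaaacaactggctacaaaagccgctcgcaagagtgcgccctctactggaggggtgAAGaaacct
H3f3b: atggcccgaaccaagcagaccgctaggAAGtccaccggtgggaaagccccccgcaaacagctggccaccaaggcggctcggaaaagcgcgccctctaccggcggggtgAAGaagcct
H3f3c: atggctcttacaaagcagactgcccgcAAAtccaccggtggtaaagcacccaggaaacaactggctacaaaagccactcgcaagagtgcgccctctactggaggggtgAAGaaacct
Over the 411 bases of the whole frame H3f3b differs from H3f3a at 95 positions and H3f3c at 4. The sequence of the transgene was not used here, so its reads cannot be told apart from those of the endogenous loci.

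H3f3a, which like H3f3b encodes H3.3, stood at 256, 192 and 224 RPKM in rtTA mice 1 to 3 and at 319, 284 and 296 RPKM in K9M mice 1 to 3. All K9M values lay above all rtTA values, but the log2 difference of 0.43 (SE 0.14) did not pass (adjusted p = 0.505). H3f3c rose: it read 214, 238 and 315 RPKM in rtTA and 912, 807 and 871 RPKM in K9M, a log2 difference of 1.77 (SE 0.19, adjusted p = 0.0123). The H3f3c call ended without K9M mouse 1, K9M mouse 2 or rtTA mouse 2, with adjusted p over all alternatives from 0.00424 to 0.0631. H3f3b stood at 271, 230 and 206 RPKM in rtTA and at 227, 204 and 205 RPKM in K9M, with a log2 difference of -0.15 (adjusted p = 0.855). The groups overlapped for H3f3b. Col1a1, the locus of the transgene, lay between 0.0596 and 0.168 RPKM in all 6 libraries and was not tested.

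Few genes passed the test. In all, 17 genes were called at an adjusted p under 0.05, 0.135% of those tested, with 13 higher in K9M (0.103%) and 4 lower (0.0318%). At an unadjusted p under 0.05 there were 501 genes higher (3.99%) and 387 lower (3.08%). With limma-voom on approximate read counts, which changes both the scale and the variance model, those numbers were 338 and 499. After quantile normalization of the RPKM values they were 557 and 437. The 3 K9M values lay above all 3 rtTA values for 894 genes (7.12%) and below them for 679 (5.4%). These shares, and those at an unadjusted p under 0.05, are the background for the counts of listed genes below. Genes picked by a small p tend to have groups that do not overlap, as all 17 called genes did. For such genes non-overlap is no further evidence. The median log2 difference over all tested genes was 0.01, and 281 genes (2.24%) differed by more than 1. Of the 17 called genes, 8 were processed pseudogenes, 7 were protein-coding, 1 was an immunoglobulin constant gene and 1 a non-coding transcript. A direct test of K9M against K36M called 304 genes (2.42%), 8 of them among these 17.

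The libraries did not separate cleanly by group. Correlations across genes were 0.970 to 0.972 among K9M libraries, 0.943 to 0.963 among rtTA libraries and 0.952 to 0.962 between the groups. In a principal component analysis the leading axis held 31.4% of the variance, and rtTA mouse 1 lay at 20.6, beside the K9M mice at 11.1 to 19, while the other rtTA mice lay at -33.6 and -28.8. The median SD within a group on the log2 scale was 0.138 for K9M and 0.219 for rtTA. Of the sort genes, Kit (cKit) stood at 88.1, 95.5 and 102 RPKM in rtTA and 86.2, 81.1 and 92.0 RPKM in K9M, and Ly6a (Sca1) at 292, 125 and 120 against 172, 125 and 160 RPKM. Neither passed (adjusted p = 0.858 and 0.957). Of the genes for lineage antigens, Itgam (Mac1) remained detectable, at 7.58, 4.21 and 15.4 RPKM in rtTA and 3.31, 2.56 and 4.21 RPKM in K9M. All 3 tested genes for lineage antigens, Itgam, Ly6g and Ptprc, were lower in K9M at an unadjusted p under 0.05, against 3.08% of all tested genes. Their median difference was -1.15, and none passed (smallest adjusted p = 0.602). Whether the purity of the sort differed between groups was not tested.

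**Figure D1:**
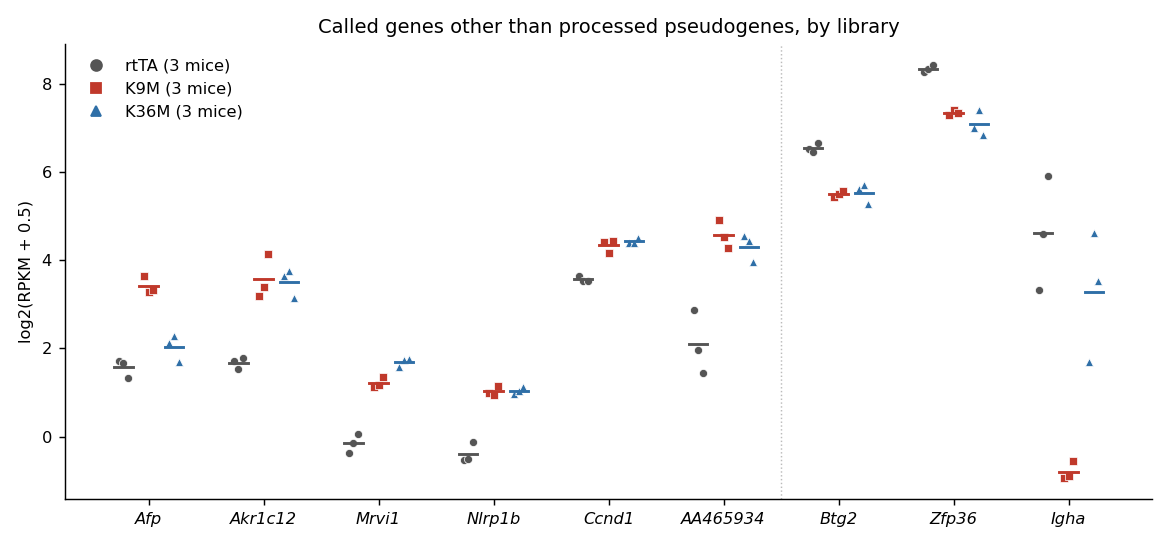
Expression of 9 called genes as log2(RPKM + 0.5) on the vertical axis, in rtTA, K9M and K36M libraries. Each point is 1 mouse and each bar the group mean. Afp is high in K9M, at 9.22 to 12 RPKM, while Btg2 and Zfp36 lie below the controls in both mutants.

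Afp encodes alpha-fetoprotein, the major serum protein of the fetal liver and yolk sac, which is silenced after birth. It rose in K9M cells. Its level was 2.79, 2.67 and 2.03 RPKM in rtTA (mean 2.49 ± 0.41, SD, n = 3) and 12, 9.22 and 9.54 RPKM in K9M (mean 10.2 ± 1.51), a log2 difference of 1.84 (SE 0.19, adjusted p = 0.0101). Every K9M library was far above every control, and the call held with each of the 9 libraries left out. In K36M cells Afp stood at 3.89, 4.39 and 2.72 RPKM, and K9M exceeded K36M by 1.38 (SE 0.19, adjusted p = 0.0149).

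Afp lies on chromosome 5 (90490737 to 90508907, plus strand, mm10) in a cluster with Alb (albumin) and Afm (afamin). The 250 bases before its RefSeq start are printed because the gene stands out among its neighbours. That start lies 23 bases before the start of the other annotation used here. The window is chr5:90490464-90490713 on the plus strand of GRCm38.p6. Capitals mark a TATA box (TATAAA, plus orientation only), a match present in 7.55% of 32536 mouse windows of this length.
Afp: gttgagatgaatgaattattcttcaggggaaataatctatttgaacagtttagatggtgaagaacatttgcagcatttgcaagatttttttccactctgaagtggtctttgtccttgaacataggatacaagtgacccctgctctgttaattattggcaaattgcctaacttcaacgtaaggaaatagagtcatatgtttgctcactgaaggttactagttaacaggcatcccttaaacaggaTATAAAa
Alb, 30 kb before Afp, was at 0 in all 9 libraries, and Afm, 28 kb after it, was at most 0.0135 RPKM. Of 28 annotated genes that started within 1 Mb of Afp, 16 were tested and 2 had an unadjusted p under 0.05. Those were Afp and Eif5al3-ps, a pseudogene 359 kb away that is described below. The chemokine gene Pf4 stood at 28.0, 52.1 and 53.3 RPKM in rtTA and 60.6, 50.3 and 37.3 RPKM in K9M.

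ZHX2 and ZBTB20 are repressors of Afp in the adult liver. Zhx2 stood at 1.5, 1.55 and 1.71 RPKM in rtTA and 1.18, 1.32 and 1.11 RPKM in K9M (log2 difference -0.29, adjusted p = 0.772). Zbtb20 stood at 1.20, 1.34 and 1.36 RPKM in rtTA and 0.851, 0.930 and 1.02 RPKM in K9M (-0.33, adjusted p = 0.773). For both genes all K9M values lay below all rtTA values, and neither passed the test. The related Zhx1 and Zhx3 overlapped between groups, with log2 differences of 0.02 and -0.12. Gpc3 (glypican 3), which like Afp is under Zhx2 control in liver, had a log2 difference of -0.34 (adjusted p = 0.828).

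The aldo-keto reductases of the Akr1c cluster reduce steroids and other carbonyl compounds. Akr1c12 (chromosome 13, 4268176 to 4279433) rose, from 2.78, 2.40 and 2.93 RPKM in rtTA to 8.66, 10.0 and 17.3 RPKM in K9M (1.91, SE 0.25, adjusted p = 0.0333). The groups did not overlap. Its K36M level was like that of K9M, at 11.9, 13.1 and 8.40 RPKM, with a K9M minus K36M difference of 0.06 (SE 0.25). Akr1c13 stood at 30.4, 24.1 and 26.3 RPKM in rtTA and 48.9, 39.0 and 40.8 RPKM in K9M, without overlap, and did not pass (0.66, adjusted p = 0.112). Akr1c18 and Akr1e1 had log2 differences of 0.29 and 0.10. Of 10 genes on the list 4 were tested and all 4 differences were positive, with a median of 0.47 against 0.01 over all tested genes. These genes resemble each other in sequence, so reads may be split among them. The Akr1c12 call ended without rtTA mouse 2 or 3, K9M mouse 2, or K36M mouse 1 or 2, with an adjusted p of at most 0.189.

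Other coding genes rose in K9M, and the direct test of K9M against K36M called none of them. Ccnd1 (chromosome 7, 144929931 to 144939925) encodes cyclin D1, which with CDK4 and CDK6 drives entry into the cell cycle. It stood at 12.1, 11.1 and 11.1 RPKM in rtTA and 20.8, 17.5 and 21 RPKM in K9M (0.76, SE 0.10, adjusted p = 0.0359). K36M values were 20.4, 20.4 and 22.3 RPKM. Mrvi1 (chromosome 7, 110868266 to 110982461) encodes a substrate of cGMP-dependent protein kinase at the endoplasmic reticulum. It stood at 0.279, 0.401 and 0.538 RPKM in rtTA and 1.68, 1.75 and 2.05 RPKM in K9M (1.37, SE 0.18, adjusted p = 0.0333). Its mean log2 level was higher in K36M than in K9M, without passing the direct test. Nlrp1b (chromosome 11, 71153102 to 71230733) encodes an inflammasome sensor. It stood at 0.189, 0.199 and 0.424 RPKM in rtTA, about 20, 42 and 67 reads, and 1.49, 1.42 and 1.7 RPKM in K9M, about 459, 253 and 170 reads (1.41, SE 0.20, adjusted p = 0.0388). The non-coding transcript AA465934 (chromosome 11, 83291699 to 83294632) stood at 6.80, 3.43 and 2.23 RPKM in rtTA and 29.6, 22.5 and 19 RPKM in K9M (2.48, SE 0.33, adjusted p = 0.0359). None of these 4 genes overlapped between the groups.

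These 4 calls were close to the threshold. Leaving out any of 8 of the 9 libraries ended the call of Ccnd1 (rtTA mouse 1 was the exception), of AA465934 (rtTA mouse 1) and of Nlrp1b (rtTA mouse 3), and any of 7 that of Mrvi1 (rtTA mice 1 and 3). Their highest adjusted p over all alternatives lay between 0.151 and 0.301. Nlrp1b has closely related genes beside it, and B6 and 129 mice carry different Nlrp1b alleles. AA465934 lies 11.65 Mb and Nlrp1b 23.75 Mb before Col1a1, the transgene locus, on the same chromosome. Strain origin of that chromosome and the transgene cannot be told apart here, and K36M mice, with the same locus targeted, showed similar values for both (23.0, 21.1 and 15 RPKM for AA465934; 1.45, 1.56 and 1.68 RPKM for Nlrp1b). Within 5 Mb of Col1a1 105 genes were tested, of which limma called 0 and 6 (5.71%) were at an unadjusted p under 0.05. Within 5 Mb of Rosa26 56 were tested, with 0 called and 1 (1.79%) at an unadjusted p under 0.05. Over the whole of chromosome 11 that share was 7.3%, against 7.07% over all tested genes.

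The two-sided tests left several coding genes with small p values just outside the threshold. Among those with the smallest p, F2rl3, the thrombin receptor PAR4, stood at 25.1, 23.1 and 23.2 RPKM in rtTA and 41.9, 36.1 and 33.8 RPKM in K9M (0.63, adjusted p = 0.0797). Egfl7, an angiogenic factor whose gene hosts miR-126, stood at 41.1, 35.3 and 34.7 RPKM in rtTA and 73.5, 54.0 and 67.8 RPKM in K9M (0.80, adjusted p = 0.102). Both stood lower in K36M than in K9M by the direct test, by 0.70 for F2rl3 (adjusted p = 0.0181) and by 1.44 for Egfl7 (adjusted p = 0.00511). The signalling adaptor gene Grap stood at 1.04, 1.06 and 1.03 RPKM in rtTA and 2.14, 2.61 and 2.89 RPKM in K9M (0.97, adjusted p = 0.1). Vldlr, a lipoprotein receptor gene, had the opposite sign, at 3.71, 3.03 and 2.71 RPKM in rtTA and 1.17, 0.925 and 1.35 RPKM in K9M (-1.15, adjusted p = 0.0918). Tcf7, which encodes the T cell factor TCF1, stood at 3.03, 3.44 and 4.86 RPKM in rtTA and 1.20, 1.33 and 1.7 RPKM in K9M (-1.15, adjusted p = 0.0918). The groups did not overlap for any of these 5 genes, which is no further evidence since they were picked by small p. Over all tested genes 7.12% were non-overlapping and higher, and 5.4% non-overlapping and lower.

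Processed pseudogenes made up 7 of the 13 called rises and 1 of the 4 falls. A processed pseudogene arises when a messenger RNA is reverse transcribed and inserted elsewhere in the genome, so its sequence nearly matches that of its source gene. The windows below, on the transcribed strand, show how few bases tell a copy from its most similar coding gene. Capitals mark the bases that differ. The Rpl3-ps1 and Gm11942 windows match coding bases 1 to 60 of Rpl3 and Gm10073, and the Eif5al3-ps window matches coding bases 256 to 315 of Eif5a.
Rpl3-ps1: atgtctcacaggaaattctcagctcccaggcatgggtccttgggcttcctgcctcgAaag
Rpl3: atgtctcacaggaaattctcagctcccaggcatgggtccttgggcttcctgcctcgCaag
Gm11942: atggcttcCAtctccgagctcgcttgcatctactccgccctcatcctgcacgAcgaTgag
Gm10073: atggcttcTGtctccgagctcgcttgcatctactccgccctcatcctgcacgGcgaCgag
Eif5al3-ps: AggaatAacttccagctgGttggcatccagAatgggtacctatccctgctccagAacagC
Eif5a: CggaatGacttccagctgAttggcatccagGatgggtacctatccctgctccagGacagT
Over its whole aligned length each of the 8 called pseudogenes matched its closest coding gene at 97.2% (Eif5al3-ps) to 99.8% (Rpl3-ps1).

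Rpl3-ps1 (chromosome X, 13202571 to 13203780), a copy of the ribosomal protein gene Rpl3, was listed at 0 in all 3 rtTA and all 3 K36M libraries. In K9M it stood at 113, 390.2 and 100.3 RPKM, about 6688, 13320 and 1926 reads. The log2 difference of 8.36 (SE 0.43, adjusted p = 0.000112) depends on the pseudocount. Rpl3 itself stood at 2064, 1458 and 1845 RPKM in rtTA and 1942, 1141 and 1670 RPKM in K9M (-0.19, adjusted p = 0.881). The copy differs from the Rpl3 transcript at 2 of 1210 aligned bases. Rpl3-ps1 was thus all or none by group, at a level below that of its source gene in each K9M mouse. The gap was smallest in K9M mouse 2, with 390.2 RPKM against 1141 RPKM for Rpl3, the lowest Rpl3 value among the rtTA and K9M libraries. With approximate reads in place of RPKM, limma-voom gave an adjusted p of 0.189.

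Gm11942 (chromosome 4, 32964888 to 32965232) is a copy 97.7% identical to Gm10073, a coding gene model. It rose from 2.80, 2.32 and 2.21 RPKM in rtTA to 31.0, 25.3 and 23.0 RPKM in K9M (3.19, SE 0.18, adjusted p = 0.000165). K36M stood at control level, at 2.45, 1.42 and 2.08 RPKM. The call held under every alternative tried, with an adjusted p of at most 0.00448. Gm5874 (chromosome 6, 18824552 to 18825059), a copy of the tRNA splicing gene Tsen15, was listed at 0 in every rtTA library. K9M libraries had 7.63, 5.52 and 4.48 RPKM of it (adjusted p = 0.00993). Gm1840 (chromosome 8, 5639580 to 5641011), a copy of the glycolysis gene Gpi1, rose from 3.45, 2.01 and 2.52 RPKM to 9.56, 13.6 and 20.9 RPKM (2.22, SE 0.31, adjusted p = 0.0388). Both differed from K36M as well, by 2.76 for Gm5874 (adjusted p = 0.0127) and 2.35 for Gm1840 (adjusted p = 0.0121). The Gm5874 call ended without K9M mouse 2, and the Gm1840 call without K9M mouse 2 or 3, rtTA mouse 2 or 3, or K36M mouse 1 or 3.

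Eif5al3-ps (chromosome 5, 90132229 to 90132675), a copy of the translation factor gene Eif5a, rose from 4.05, 3.31 and 1.08 RPKM in rtTA to 41.6, 43.7 and 39.1 RPKM in K9M (3.8, SE 0.33, adjusted p = 0.00372). Gm8494 (chromosome 5, 146574888 to 146576120), a copy of Smarce1, which encodes a BAF chromatin remodelling subunit, rose from 0.130, 0.763 and 0 RPKM to 7.34, 4.30 and 6.50 RPKM (3.12, SE 0.39, adjusted p = 0.029). K36M values of both were close to those of K9M, at 51.8, 43.3 and 51.0 RPKM for Eif5al3-ps and 9.38, 4.22 and 7.88 RPKM for Gm8494. Gm2423 (chromosome 13, 13232161 to 13232893), a copy of the 14-3-3 gene Ywhaq, fell from 5.47, 3.00 and 15.5 RPKM in rtTA to 0, 0.240 and 0 RPKM in K9M (-3.61, SE 0.47, adjusted p = 0.0333). K36M mice had Gm2423 at 5.11, 6.20 and 4.33 RPKM. The Gm8494 call ended without rtTA mouse 3, K36M mouse 3 or any 1 of the K9M mice, and the Gm2423 call without any 1 of the K9M or K36M mice.

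The most similar coding genes of the 8 called pseudogenes did not pass. Such a gene need not be the source of the copy. Gm10073 is itself only a gene model, so the source of Gm11942 was not established. The log2 differences of these coding genes ran from -0.55 for Gm10073 to 0.43 for H3f3a. They were -0.02 for Gpi1, 0.01 for Smarce1, 0.06 for Tsen15, 0.11 for Eif5a and 0.14 for Ywhaq. How the submitters counted reads that match several places is not given in the sources used here. Reads of a source gene placed on its copy therefore cannot be told apart from transcription of the copy, and the level of each copy is uncertain.

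**Figure D2:**
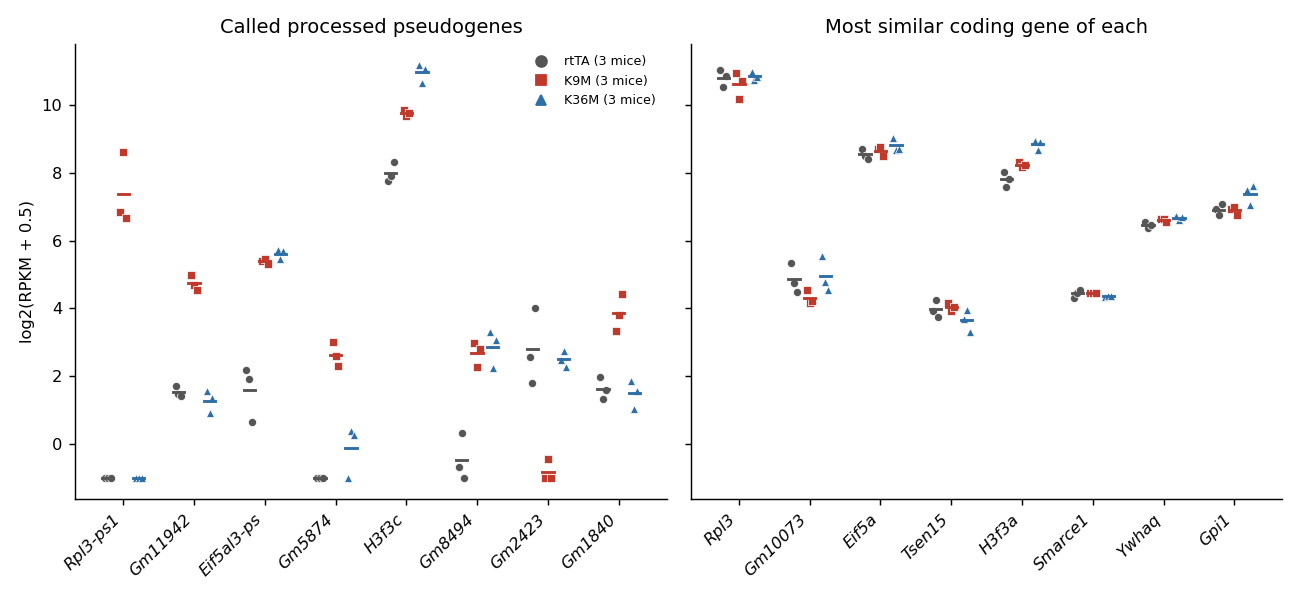
Levels as log2(RPKM + 0.5) of the 8 called processed pseudogenes (left) and of the coding gene most similar to each (right), 1 point per mouse. The copies separate K9M from rtTA libraries. None of the coding genes passed the test, with Rpl3 at 1141 to 2064 RPKM over both groups, though for H3f3a all K9M values lie above all rtTA values.

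As a class chosen after these calls were seen, processed pseudogenes leaned towards higher values in K9M. Of 834 tested, 610 (73.1%) had a positive difference, against 51.4% of all tested genes, and the median was 0.19. At an unadjusted p under 0.05 there were 74 higher (8.87%, background 3.99%) and 11 lower (1.32%, background 3.08%). The median level of the class as log2(RPKM + 0.5) was nevertheless 2.36, 1.8 and 2.11 in the rtTA mice and 2.25, 2.31 and 2.34 in the K9M mice, so the groups overlapped and the highest value was that of rtTA mouse 1. Without rtTA mouse 1 there were 180 higher and 12 lower, and without rtTA mouse 2 there were 64 and 21 with a median of 0.07. Copies whose most similar coding gene had a ribosomal protein symbol (379, median 0.21) and other copies (455, median 0.17) differed little in this respect. A most similar coding gene was found for 71 of the 74 higher copies, 56 genes in all. For 4 of the 71 that gene was itself higher at an unadjusted p under 0.05, and for 49 its difference was positive. The median difference was 0.12 over the 346 such genes of all tested copies.

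Genes of 2 immediate early response lists stood lower in K9M libraries, though none of their members passed the test. Btg2 and Zfp36, which were called lower, are on the mRNA decay list and are described below. The immediate early response is a set of genes switched on within minutes of mitogen, cytokine or stress signals. It also switches on while tissue is dissociated and sorted. Its AP-1 factors are dimers of Fos and Jun proteins, and NR4A1 and the EGR proteins are further factors of the same wave. Of the 23 tested genes of these 2 lists limma called 0. At an unadjusted p under 0.05 there were 13, each lower in K9M, and 22 of 23 differences were negative, with a median of -0.66. Fos stood at 468, 458 and 436 RPKM in rtTA and 183, 243 and 199 RPKM in K9M (-1.13, SE 0.20, adjusted p = 0.112). Fosb stood at 28.4, 53.5 and 34.5 RPKM in rtTA and 4.27, 11.9 and 7.62 RPKM in K9M (-2.27, SE 0.49, adjusted p = 0.192). Both lists were chosen with earlier results of these samples known, so their direction is no independent evidence.

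All 3 Jun genes had non-overlapping groups, as did 5.4% of all tested genes in that direction. Junb stood at 173, 202 and 192 RPKM in rtTA and 93.2, 105 and 112 RPKM in K9M (-0.87, adjusted p = 0.0918). Jun stood at 69.5, 133 and 117 RPKM against 39.0, 50.1 and 46.0 RPKM (-1.19, adjusted p = 0.257), and Jund at 61.1, 84.4 and 86.4 RPKM against 44.5, 36.5 and 46.3 RPKM (-0.85, adjusted p = 0.134). Fosl2 had a difference of -0.75 (adjusted p = 0.257), and Fosl1, Atf3 and Batf overlapped between groups at -0.22, -0.11 and 0.08. Among the 6 libraries rtTA mouse 1 alone was high for Atf3 and Fosl1, at 93.0 and 33.4 RPKM, against 36.4 to 49.3 RPKM and 12.6 to 16.7 RPKM in the other 5 libraries.

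Nr4a1, which encodes the nuclear receptor NUR77, stood at 42.2, 71.5 and 80.2 RPKM in rtTA and 16.6, 20.8 and 19.4 RPKM in K9M (-1.70, adjusted p = 0.106). Egr1 stood at 70.0, 134 and 163 RPKM in rtTA and 29.8, 35.7 and 32.4 RPKM in K9M (-1.81, adjusted p = 0.112). Egr2 and Egr3 had differences of -1.34 (adjusted p = 0.134) and -2.23 (adjusted p = 0.228), the latter from 1.49, 2.42 and 7.77 RPKM to 0.0433, 0.675 and 0.222 RPKM. All 4 genes had non-overlapping groups. Of the IER genes, which encode short-lived nuclear and signalling proteins, Ier2 had a difference of -0.61 (adjusted p = 0.295), Ier3 of -0.74 (adjusted p = 0.416) and Ier5 of -0.66 (adjusted p = 0.324). Srf, whose product binds the promoters of many of these genes, had a difference of -0.11.

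The number of calls in this group depended on the libraries and the model. Without rtTA mouse 1, whose early response values were in many cases the nearest to K9M, 5 of the 23 genes were called lower: Egr1 (adjusted p = 0.0286), Ier5, Nr4a1, Jund and Fosl2. The median was then -0.86 and 17 genes had an unadjusted p under 0.05. With each library weighted by its agreement with its group 10 were called, and without K36M mouse 3 Fos alone was. Fosb alone was called with the replicate number as a block. Without rtTA mouse 2 the median was -0.58. Values of the K36M mice against the same controls had a median of -0.95 for these 23 genes.

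**Figure D3:**
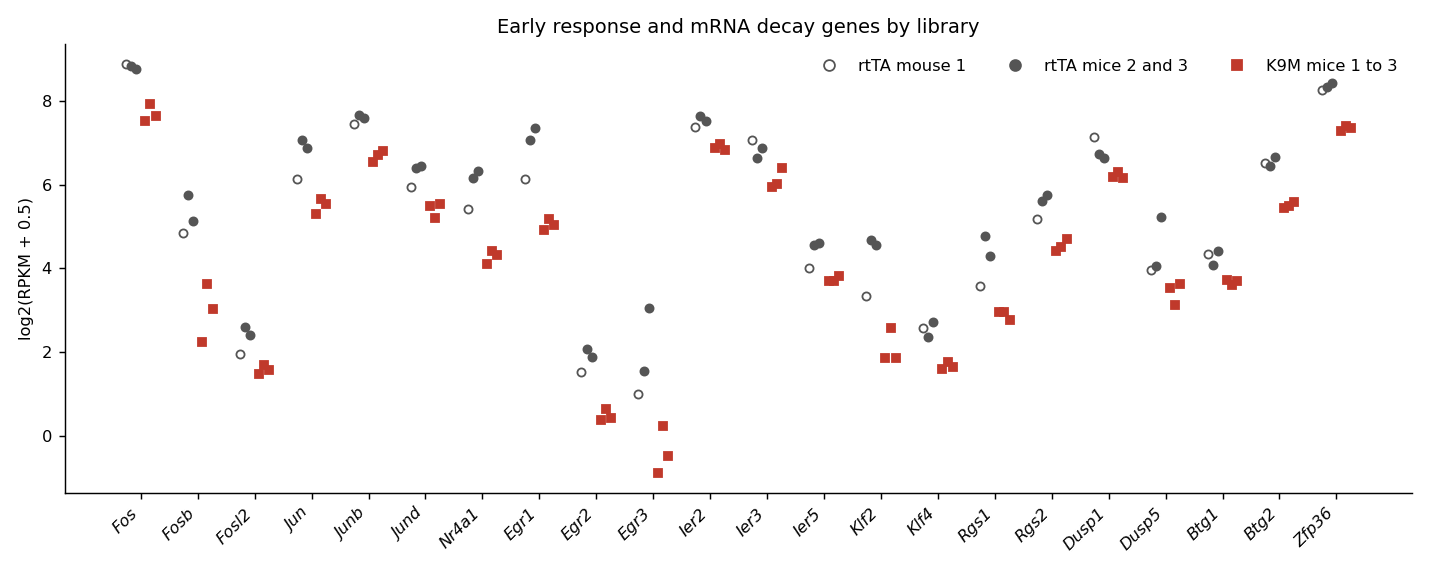
Levels as log2(RPKM + 0.5) of 22 early response and mRNA decay genes in the 6 libraries. Open circles are rtTA mouse 1, filled circles rtTA mice 2 and 3, and squares K9M mice. For Fos, Junb, Nr4a1 and Btg2 all 3 squares lie below all circles.

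Btg2 and Zfp36, called lower in K9M, encode proteins that shorten the life of messenger RNAs. BTG2 (also named TIS21 and PC3) is an antiproliferative p53 target that brings the CCR4-NOT deadenylase to its targets. Btg2 (chromosome 1, 134075170 to 134079120, minus strand) stood at 91.1, 87.1 and 100.5 RPKM in rtTA and fell to 43.1, 44.6 and 47.4 RPKM in K9M (-1.04, SE 0.12, adjusted p = 0.0232). ZFP36 (tristetraprolin) binds AU-rich elements of cytokine and early response transcripts. Zfp36 (chromosome 7, 28376784 to 28380253, minus strand) stood at 306, 322 and 346 RPKM in rtTA and fell to 156, 170 and 162 RPKM in K9M (-1.0, SE 0.14, adjusted p = 0.0467). Neither gene overlapped between groups, and for both the 6 mutant libraries lay below the 3 controls, with K36M at 48.6, 51.4 and 38.2 RPKM for Btg2 and 128, 170 and 115 RPKM for Zfp36. The Btg2 call ended without rtTA mouse 2 or 3 or any 1 of the K9M mice (adjusted p at most 0.108), and the Zfp36 call without any library but K36M mouse 2 (at most 0.208).

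The 250 bases before the RefSeq start of each are printed since these are the coding genes called lower. The windows are chr1:134079156-134079405 for Btg2 and chr7:28379229-28379478 for Zfp36, both from GRCm38.p6 and written on the minus strand, 5′ to 3′. The RefSeq start of Zfp36 used here lies 1025 bases from the start in the annotation that gave its coordinates. Capitals mark a cAMP response element (TGACGTCA) in Btg2, and an EGR site (GCGGGGGCG) followed by a CArG box, the binding site of SRF, in Zfp36.
Btg2: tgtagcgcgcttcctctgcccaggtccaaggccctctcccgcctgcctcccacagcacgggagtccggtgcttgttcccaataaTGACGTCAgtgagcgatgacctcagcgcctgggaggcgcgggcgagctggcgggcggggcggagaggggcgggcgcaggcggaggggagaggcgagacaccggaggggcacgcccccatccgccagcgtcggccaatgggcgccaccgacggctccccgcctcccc
Zfp36: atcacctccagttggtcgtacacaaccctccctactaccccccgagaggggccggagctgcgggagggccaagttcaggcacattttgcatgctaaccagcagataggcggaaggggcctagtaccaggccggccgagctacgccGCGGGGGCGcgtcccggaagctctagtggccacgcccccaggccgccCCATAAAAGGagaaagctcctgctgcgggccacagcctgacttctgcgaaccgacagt
Searched on both strands, the response element was present in 1.56% of all mouse windows of this length, the EGR site in 2.6% and the CArG box in 1.48%. Among 16 windows of early response, Btg, Zfp36, Klf and Rgs2 genes, the printed pair included, the EGR site was in 6. The response element and the CArG box were only in the printed windows, 1 each, and the AP-1 site (TGAGTCA or TGACTCA, 4.45% of all windows) in 0. A match describes the letters of the window only.

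No other gene of the mRNA decay list passed. Of 14 tested genes 2 were called and 6 had an unadjusted p under 0.05, all lower in K9M, with a median of -0.20. Btg1 stood at 19.96, 16.3 and 21 RPKM in rtTA and 12.8, 11.6 and 12.4 RPKM in K9M (-0.61, adjusted p = 0.112). Tob1, of the same protein family, stood at 18.1, 13.5 and 12.3 RPKM against 9.48, 10.5 and 10.9 RPKM (-0.47, adjusted p = 0.492). Zfp36l1 stood at 11.4, 11.8 and 12.9 RPKM against 8.13, 8.27 and 10.3 RPKM (-0.42, adjusted p = 0.432). The groups did not overlap for these 3 genes, whereas they did for Zfp36l2, the most abundant ZFP36 relative besides Zfp36 itself, at 268, 444 and 372 against 345, 284 and 291 RPKM (-0.21, adjusted p = 0.871). None of the 6 tested genes of the CCR4-NOT deadenylase had an unadjusted p under 0.05. Their median was -0.02.

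Other regulators that can be induced alongside the early response gave 1 call, Btg2 on the p53 list. Of 10 tested Kruppel-like factors 3 had an unadjusted p under 0.05, all lower, against 3.08% of all tested genes lower at that threshold. Klf2 stood at 9.70, 25.3 and 23.2 RPKM in rtTA and 3.13, 5.43 and 3.14 RPKM in K9M (-2.10, adjusted p = 0.114), and Klf4 at 5.5, 4.64 and 6.05 against 2.52, 2.90 and 2.62 RPKM (-0.88, adjusted p = 0.104). Of 7 RGS genes, which switch off G protein signals, 3 were lower at that threshold, among them Rgs2 at 35.9, 48.1 and 53.2 RPKM in rtTA and 20.8, 22.4 and 25.5 RPKM in K9M (-0.97, adjusted p = 0.0797). Of 8 DUSP phosphatases, which switch off MAP kinases, 3 were lower, with Dusp1 at -0.62, Dusp2 at -0.72 and Dusp5 at -0.99. The other 5 did not reach that threshold, and Dusp4 (0.61) and Dusp16 (0.16) had positive differences. The NF-kB inhibitors Tnfaip3 and Nfkbiz, both at -0.73, were 2 of 13 tested NF-kB genes. Of 22 tested genes of the p53 list 1 was called (Btg2) and 4 were lower at an unadjusted p under 0.05, with a median of -0.32 and 5 positive differences. Cdkn1a (p21), its best-known target, had a difference of -0.52 (adjusted p = 0.722).

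No enzyme of H3K9 methylation was called. Of 18 tested writers and partners limma called 0. None reached an unadjusted p under 0.05, and differences ran from -0.21 to 0.27 and a median of -0.02. Setdb1 stood at 7.80, 14.4 and 11.4 RPKM in rtTA and 8.83, 10.7 and 10.0 RPKM in K9M (-0.14), and Ehmt2 at 28.9, 40.1 and 33.8 against 30.5, 33.6 and 30.03 RPKM (-0.11). Of 10 readers, the HP1 gene Cbx3 included (152, 147 and 136 against 171, 163 and 145 RPKM), 0 had an unadjusted p under 0.05. Of 10 H3K9 demethylases 1 did, lower in K9M. Of 13 H3.3 genes and chaperones 2 did, both higher: H3f3a and the histone co-chaperone gene Dnajc9 (81.4, 82.8 and 77.3 against 101, 105 and 89.9 RPKM, 0.29, adjusted p = 0.506). Of 8 DNA methylation genes, Dnmt3b had a difference of 0.33 (adjusted p = 0.703). Tet1, Tet2 and Tet3, whose products oxidise methylcytosine, had differences of -0.14, -0.51 and -0.38, and Tdg, a glycosylase that removes the oxidised bases, of -0.03. The groups overlapped for these 4 genes.

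Of genes that H3K9 methylation is known to silence in other cells, few reached the filter. Of 32 germline genes 7 were tested. Of the other 25, 7 were at 0 in all 6 libraries and the rest had some signal in at least 1. Of the tested germline genes 2 had an unadjusted p under 0.05, both higher in K9M. Dkkl1, an acrosome protein gene, stood at 26.1, 17.9 and 25 RPKM in rtTA and 40.04, 34.9 and 30.3 RPKM in K9M (0.61, adjusted p = 0.442), without overlap. Ddx4 (VASA) stood at 4.81, 4.06 and 5.68 against 8.28, 5.59 and 9.92 RPKM (0.63, adjusted p = 0.682), with overlap. The 7 tested genes had a median of 0.31. For the K36M mice against the same controls their median was -0.43. The direct test of K9M against K36M called 4 of the 7, against 2.42% of all tested genes. None of 10 genes of the totipotent cleavage-stage programme was tested, and 8 were at 0 in all 6 libraries. Of 1066 olfactory receptor genes 1010 were at 0 in all 6 libraries and 1 was tested. The imprinted gene Ndn (necdin) stood at 2.55, 4.13 and 2.76 RPKM in rtTA and 5.64, 5.29 and 7.16 RPKM in K9M (0.85, adjusted p = 0.403), the only 1 of 10 tested imprinted genes with an unadjusted p under 0.05.

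Among lists of mature blood cells, the B lineage, mature neutrophil and monocyte genes stood lower in K9M libraries, with 1 call. Others did not: of 10 T and NK genes 2 were higher and 2 lower at an unadjusted p under 0.05, of 8 dendritic and MHC class II genes 0 were (median 0.03), and the medians of 15 megakaryocyte, 5 mast cell and 9 primary granule genes were -0.03, 0.01 and -0.20. In bulk libraries fewer cells of a type and less RNA per cell cannot be told apart. Igha (chromosome 12, 113254830 to 113260236), the IgA heavy chain constant gene of plasma cells, was called lower. It stood at 9.57, 23.7 and 59.3 RPKM in rtTA and at 0.0198, 0.0343 and 0.183 RPKM in K9M, about 3 to 8 reads (-5.41, SE 0.76, adjusted p = 0.0388). The K36M mice had 2.74, 24.0 and 11 RPKM. The Igha call ended without rtTA mouse 2 or 3, K36M mouse 3 or any 1 of the K9M mice, and reached an adjusted p of 0.595. Igj, the J chain gene of secreted IgA and IgM, stood at 3.31, 4.47 and 11.1 RPKM in rtTA and 0.469, 0.831 and 0.817 RPKM in K9M (-2.34, adjusted p = 0.0918).

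The B lineage list as a whole had the same sign. Of 17 tested genes 1 was called, 12 had an unadjusted p under 0.05, all lower in K9M, and 16 differences were negative, with a median of -1.25. For the K36M mice against the same controls the median of these genes was -0.72. The mean level of the list as log2(RPKM + 0.5) was 2.91, 3.47 and 3.52 in the rtTA mice and 1.55, 1.76 and 2.19 in the K9M mice. Its summed RPKM was 466 to 793 in rtTA and 375 to 453 in K9M. Cd79a, the B cell receptor signalling chain, stood at 5.80, 12.4 and 9.25 RPKM in rtTA and 1.87, 1.36 and 2.30 RPKM in K9M (-2.0, adjusted p = 0.0797). Vpreb3 had a difference of -2.08 (adjusted p = 0.187) and the B cell coactivator gene Pou2af1 of -1.60 (adjusted p = 0.142). The smallest negative difference among those named was that of Ighm, at 169, 139 and 252 RPKM in rtTA and 169, 152 and 206 RPKM in K9M (-0.06). Vpreb2, a surrogate light chain gene, had the 1 positive difference, 0.46 (adjusted p = 0.901), with overlap. Ighm and Vpreb2 are given as exceptions after their values were seen. B220, an antigen used to remove B cells in the sort, is a form of the Ptprc product, and Ptprc had a difference of -0.34.

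For granulocyte genes the size of the difference turned on 1 control mouse. All 17 tested genes of secondary granules and mature neutrophils had negative differences, with a median of -1.53, and 4 had an unadjusted p under 0.05. The K36M mice against the same controls had a median of -2.08 for these 17 genes. Camp (cathelicidin) stood at 101, 57.0 and 432 RPKM in rtTA and 72.9, 28.1 and 37.0 RPKM in K9M. The mean log2 level of all 26 tested granulocyte genes was 5.02, 4.58 and 6.66 in the rtTA mice and 4.56, 4.33 and 4.21 in the K9M mice, and their summed RPKM was 2030 to 8870 and 1890 to 2320. For the 17 secondary granule and mature neutrophil genes the median without rtTA mouse 3 was -0.62 and 0 had an unadjusted p under 0.05. Without rtTA mouse 2 the median of these 17 was -2.17 with 16 genes at that threshold. Ly6g, part of the Gr1 antigen, stood at 42.1 RPKM in rtTA mouse 3 and at 1.06 to 6.31 RPKM in the other 5 libraries. Of 13 tested monocyte genes 6 were lower at an unadjusted p under 0.05, among them Csf1r at 9.26, 4.29 and 10.7 RPKM in rtTA and 3.04, 3.38 and 3.8 RPKM in K9M. The median of these 13 genes was -0.72 in K9M and 0.01 in K36M, against the same controls. The part of mature cells in the early response differences was not tested.

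No erythroid gene was called. Of 19 tested 5 had an unadjusted p under 0.05, all higher in K9M, 4 of them among the 8 globin and heme synthesis genes. Hbb-bs, a beta globin gene, stood at 9.34, 9.24 and 19.3 RPKM in rtTA and 20.4, 24.9 and 20.9 RPKM in K9M (0.86, adjusted p = 0.464). It was called when rtTA mouse 3 was left out. The median of the 19 genes was 0.20, and without K9M mouse 2 it was -0.08, with 9 positive differences. Globin genes are near-identical to each other, so reads may be split among them.

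Stem cell, lymphoid priming and proliferation genes gave no call. Of 40 tested stem cell genes 1 was higher (Slamf1, which encodes CD150, 0.51, adjusted p = 0.574) and 2 were lower at an unadjusted p under 0.05, with a median of -0.07. These counts stood near the shares over all tested genes, 3.99% higher and 3.08% lower. Of 15 lymphoid priming genes 2 were higher and 3 lower. Dntt, the terminal transferase of early lymphoid progenitors, stood at 227, 155 and 208 RPKM in rtTA and 552, 259 and 378 RPKM in K9M (0.96, adjusted p = 0.371), while Il7r and Satb1 had differences of -0.87 and -0.70. Of 23 replication genes 21 differences were positive and 5 had an unadjusted p under 0.05 (Tyms, Mcm5, Mcm4 and Ccne2 among them), with a median of 0.22. Of 22 mitosis genes 0 did, with a median of 0.05. Of 38 cytosolic ribosomal protein genes 33 differences were positive and 0 had an unadjusted p under 0.05. Their median of 0.25 was 0.09 after quantile normalization, and without rtTA mouse 1 there were 17 at that threshold. Of 34 interferon response genes 29 differences were negative, with a median of -0.21. Lower at an unadjusted p under 0.05 were 2, against 3.08% of all tested genes, and 1 was higher, against 3.99%. That 1 was the apoptosis factor gene Xaf1 (0.97, adjusted p = 0.142). Mean levels of this list as log2(RPKM + 0.5) overlapped, at 3.24, 3.07 and 3.36 in rtTA and 3.13, 2.66 and 3.23 in K9M.

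**Figure D4:**
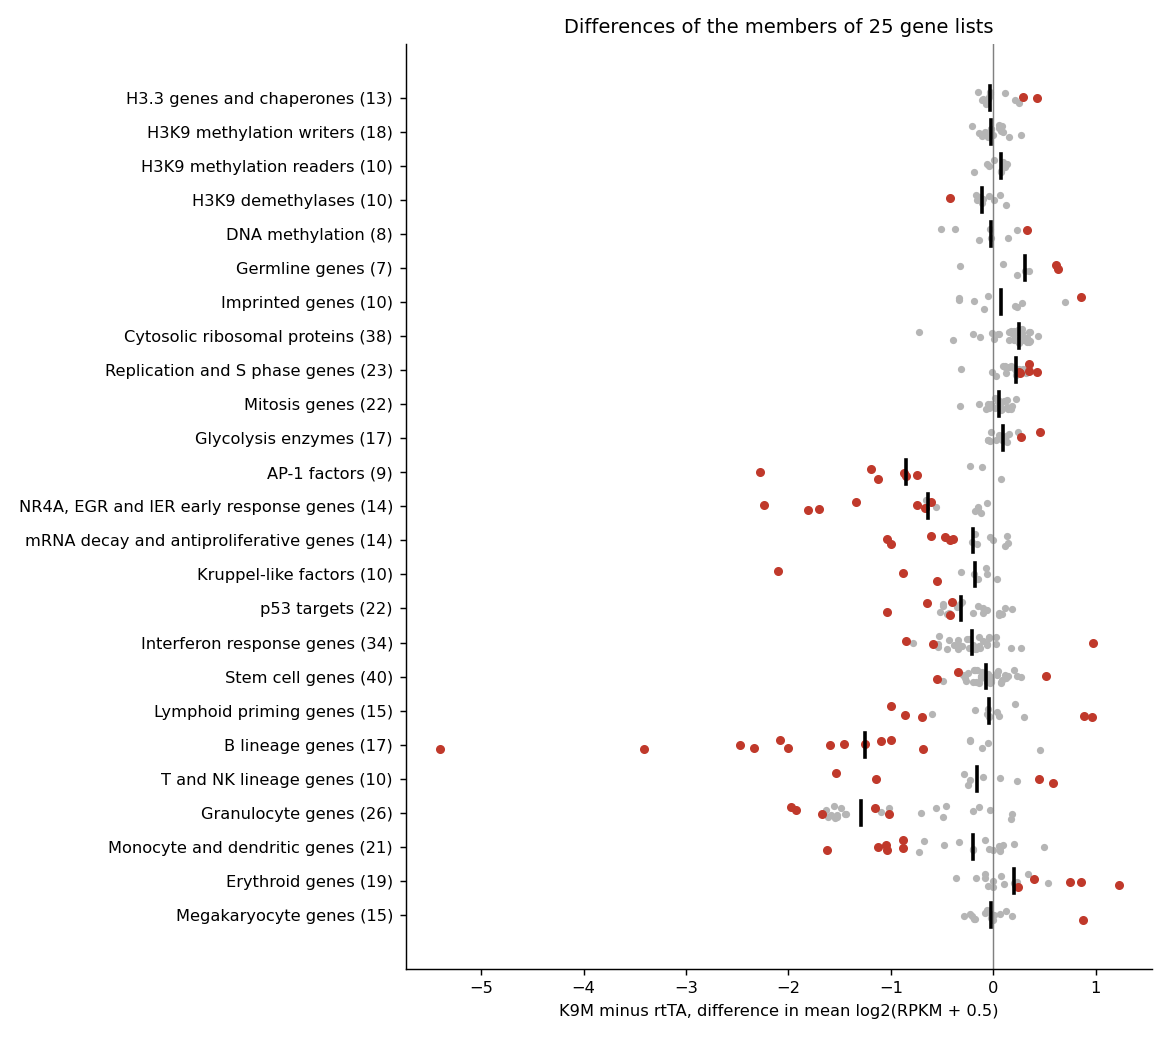
K9M minus rtTA differences on the log2(RPKM + 0.5) scale for the tested members of 25 gene lists, 1 point per gene, with the number tested in brackets. Red points have an unadjusted p under 0.05 and black bars are medians. The H3K9 writers lie between -0.21 and 0.27, and the B lineage list has a median of -1.25.

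The 17 called genes fell into different patterns once the other lysine mutant was set beside K9M. Both mutants were compared with the same 3 control mice, so a shared direction is not independent. By the direct test 8 of the 17 differed between K9M and K36M. Afp, Rpl3-ps1, Gm11942, Gm5874 and Gm1840 were higher in K9M. H3f3c, Gm2423 and Igha were lower in K9M than in K36M. The direct test called none of the other 9, for which the K9M minus K36M differences were between -0.48 for Mrvi1 (adjusted p = 0.19) and 0.26 for Zfp36 and AA465934. A missed threshold does not show that the mutants act alike at those genes.

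**Figure D5:**
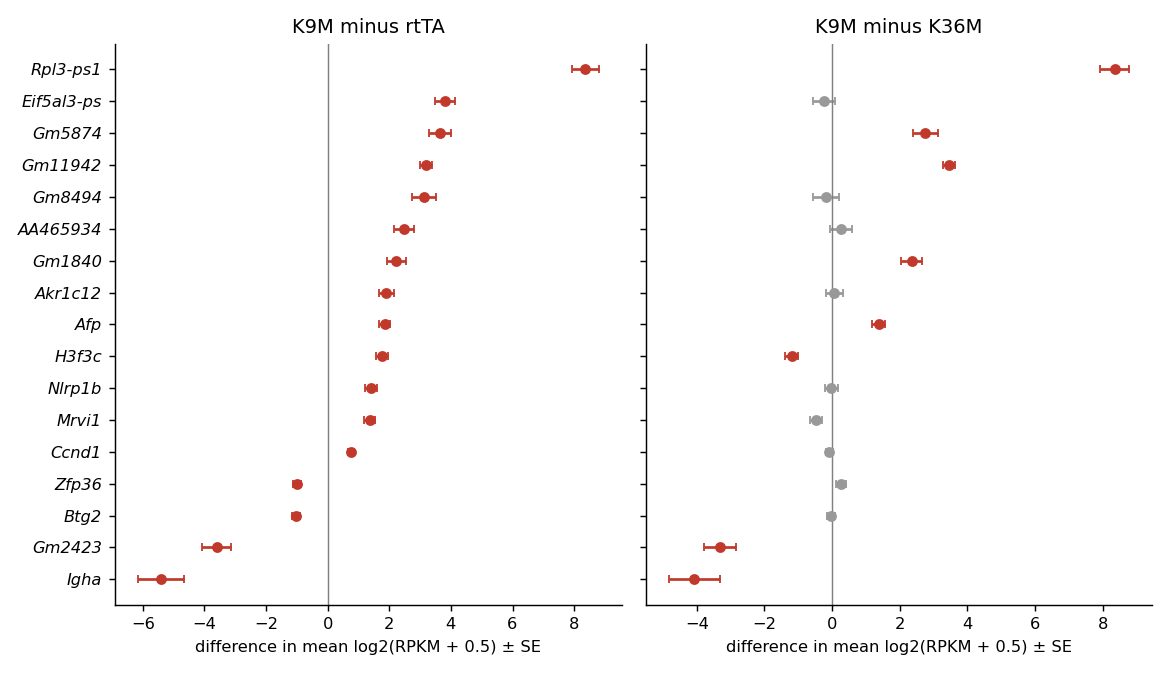
Differences on the log2(RPKM + 0.5) scale with standard errors for the 17 called genes, K9M minus rtTA on the left and K9M minus K36M on the right. In the right panel red marks an adjusted p under 0.05 in the direct comparison of the mutants, as for Afp at 1.38 and H3f3c at -1.20. All points in the left panel are red.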

How the data were processed

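RNA sequencing libraries of sorted LSK cells from 9 mice were used. The deposited values are RPKM per gene, made by the authors with CASAVA 1.7, STAR and the mm10 build, per the submitters' processing notes. Neither the STAR version nor the handling of reads with several equal matches is given in the sources used here. Per the labels' protocols polyA RNA was the molecule, while the kit named is one for total RNA. Genes were matched to GENCODE M21 (mm10), 37607 by identifier and 146 by symbol, with 129 unmatched. RPKM keep no depth, but steps of the lowest values put the libraries at about 15870000 to 50330000 reads.

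Values were analysed here as log2(RPKM + 0.5), which understates changes of low genes. With limma 3.58.1 in R 4.3.3 the 3 group means were fitted to all 9 libraries (trended eBayes, two-sided). Calls required a Benjamini-Hochberg adjusted p under 0.05 over the 12563 genes. Each replicate is 1 mouse, and p-values measure the spread between these mice. In simulated data for this comparison with 12563 genes, 72 of 100 true 2-fold and 98 of 100 true 4-fold changes were called, as were 8 genes with no change. The simulated noise was normal and equal in every group, whereas the median SD was 0.138 in K9M and 0.219 in rtTA. These rates therefore need not hold for the real libraries.

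The comparison, its 36 gene lists (644 entries, 8 unmatched) and the tests were chosen with earlier results of these data known. Named genes were the H3.3, Col1a1 and sort genes, every called gene, coding genes from the 12 rises and 12 falls with the smallest p, and of each list its called members or up to 4 members with the smallest p, with all members for the AP-1, NR4A/EGR/IER, mRNA decay, Afp and Akr1c lists. Other genes named as examples or exceptions (Pf4, Ighm, Vpreb2, Dusp4, Dusp16, Camp and members of the H3K9 lists) were chosen after their values were seen. Copies were matched to coding transcripts with blastn 2.17.0. Promoter windows came from RefSeq. Alternatives were other pseudocounts, filters, scalings, weights, a replicate block and leaving out each library.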

Additional observations from a re-analysis of the deposited data

Results flagged for a closer look

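The direct test of K9M against K36M found 10 of the genes named in the report to differ between the mutants, with limma adjusted p under 0.05. Values are K9M minus K36M on the log2(RPKM + 0.5) scale. Higher in K9M were Rpl3-ps1 by 8.36 (against libraries listed at 0), Gm11942 by 3.45, Gm5874 by 2.76, Gm1840 by 2.35, Egfl7 by 1.44, Afp by 1.38 and F2rl3 by 0.698. Lower in K9M were Igha at -4.08, Gm2423 at -3.31 and the H3.3 pseudogene H3f3c at -1.20. F2rl3 and Egfl7 had not passed against the rtTA controls.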

How the results depend on the processing

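Of the settings tried for the 17 calls, weighting the libraries gave 62, keeping every gene above 0 RPKM 8, leaving out pseudogenes 8, and quantile normalization 8 (7 higher, 1 lower). Fitted to the 6 K9M and rtTA libraries alone, without K36M in the estimate of spread, limma called 13 genes, 9 of them among the 17. Not called there were AA465934, Akr1c12, Ccnd1, Gm1840, Gm2423, Gm8494, Mrvi1 and Nlrp1b. The replicate block gave 12 on 9 libraries and 7 on the 6 alone. limma-voom on approximate reads, an alternative chosen after seeing the data, gave 8. Leaving out 1 library gave 6 to 34, with 34 without rtTA mouse 1, 6 without K9M mouse 2, 8 without rtTA mouse 2, 9 without K36M mouse 3, and 11 without K9M mouse 1 or K36M mouse 1. The 888 genes at an unadjusted p under 0.05 became 1781 with library weights, 1537 with every gene above 0 RPKM, 1522 with the replicate block, 578 at a filter of 5 RPKM, and 640 to 1589 with 1 library left out. The cause of these shifts was not tested. The labels name no pairing by replicate number. Same-number correlations of K9M and rtTA deviations were 0.167, 0.0706 and 0.0206, and different-number ones ran from -0.138 to 0.0658. These values do not settle whether the numbers pair the samples, so calls lost or gained under the block are given without a reading. Under the block on the 6 libraries Afp had an adjusted p of 0.0512. Of the 17, Gm11942 alone was called in every setting in which it was tested. None of the 17 called genes changed direction in a setting that tested it, but medians of lists near 0 did, such as the erythroid (-0.08 to 0.29), lymphoid priming (-0.20 to 0.12) and H3K9 writer lists (-0.13 to 0.06). RPKM gives no exact depth, so detection limits of genes listed at 0 are not known.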

Other observations

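The X chromosome had 456 tested genes, of which 34 were higher and 3 lower in K9M at an unadjusted p under 0.05. That split was noticed after the values were seen. Both directions together made 8.11% of its tested genes, against 7.07% over all tested genes (3.99% higher and 3.08% lower). Without pseudogenes 361 were tested, with 22 higher and 1 lower, and with 1 library left out the number higher ranged from 13 to 32. Of 290 tested genes named Zfp with a number, 89 (30.7%) had a positive difference and the median was -0.10. At an unadjusted p under 0.05 there were 16 lower (5.52%, background 3.08%) and 5 higher (1.72%, background 3.99%). Without rtTA mouse 2 the positive share was 42.1% and the median -0.03. Only 5 genes were listed at 0 in all rtTA libraries and above 1 RPKM in every K9M library: Rpl3-ps1, Gm5874, Zfp708, Gm9008 and Gm11084. The reverse pattern held for 1 gene, the immunoglobulin kappa variable gene Igkv1-110. Above 0 RPKM these numbers were 80 and 62.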
